A study of Rattus norvegicus with 6 samples.

Results

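The genes described here encode enzymes and carriers of fatty acid oxidation, 31 in all, taken by symbol from a list and read in the colonic epithelium of rats given melatonin or vehicle. All 31 had a row in the table, each with 1 RefSeq transcript, among 13104 features (12340 named genes and 764 transcripts without a matched name). Of them, 20 were grouped as mitochondrial, 4 as peroxisomal and 7 as other. The choice of genes used no measured value, although earlier results of these data, in which Acaa2 ranked high, were known when the list was made. The study took 6 adult male rats of the Wistar strain, and the pineal gland had been ablated in all of them, controls included. The vehicle group (animals 1 to 3) received 2.5% ethanol in PBS by intraperitoneal injection, and the melatonin group (animals 4 to 6) received melatonin at 1 mg/kg by the same route. Injections were given as subjective night began, and tissue was taken 4 h later. Each animal gave 1 library, made from RNA of the innermost (epithelial) layer of its colon, and the labels describe no pooling. Ablation removes pineal melatonin only, and the gut wall itself makes the hormone.

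Fatty acid oxidation shortens an acyl-CoA chain in repeated rounds of dehydrogenation, hydration, a second dehydrogenation and thiolytic cleavage, each round releasing acetyl-CoA. Long chains enter mitochondria through the carnitine shuttle, while very long and branched chains are first shortened in peroxisomes by a separate set of enzymes. In the colon, absorptive cells draw much of their energy from butyrate made by bacteria, a short-chain acid that is oxidised in mitochondria without the carnitine shuttle. Many of these genes are targets of the nuclear receptors PPAR alpha and ERR alpha.

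Expression was read as FPKM, fragments per kilobase of transcript scaled to library size, which allows levels of different genes to be compared. Steps between low values put the depth at about 3290000 to 3590000 mapped fragments per library, and the 31 genes together held 0.310% to 0.373% of the fragments. A gene's estimated reads per library ran from 3.01 for Pdk4 in melatonin animal 6 to 1415 for Hadha in melatonin animal 6. All 13 markers of absorptive colonocytes were above 0 in every library, at levels that differed widely between genes. Guca2a stood at 3769 to 5481 FPKM, Krt8 at 2895 to 3592 and Slc26a3 at 953 to 1305. Lowest were Aqp8 at 57.8 to 167, Ceacam1 at 55.2 to 155 and Guca2b at 22.8 to 80.4 FPKM. The 7 adipocyte markers found summed to 3.47 to 10.2 FPKM. Lep and Plin1 were listed at 0 in 5 of 6 libraries and Cfd in 4. Fabp4 reached 2 FPKM and Lpl 1.22, both in vehicle animal 3, where Lep, Plin1 and Cfd were also above 0. Adipoq reached 2.88 FPKM, and Cidea, at 3.47 to 5.46 FPKM in every library, made up most of the sum. Cidea thus lay above the mean level of the lowest members, Acsl4 and Pdk4. The 7 smooth muscle markers found summed to 10.2 to 16.8 FPKM. Des (3.00 to 7.02), Myh11 (2.36 to 3.95), Tagln (1.29 to 3.83) and Lmod1 (0.98 to 2.2) were above 0 in every library. Acta2 reached at most 0.21, Actg2 0.23 and Myl9 0.63. The mean levels of Des, Myh11 and Tagln also lay above those of Acsl4 and Pdk4.

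The genes spanned a wide range of levels. Hadh, the hydroxyacyl-CoA dehydrogenase for short and medium chains, led at 184 ± 20.8 FPKM (mean ± SD over the 6 animals), above the next gene by more than the spread. Acads, the dehydrogenase that starts the oxidation of butyryl-CoA, followed at 144 ± 15.7, Hadha, the alpha subunit of the trifunctional protein, at 139 ± 15.7, and Etfa, the alpha subunit of the electron transfer flavoprotein, at 139 ± 6.37. These last 3 did not differ beyond their spread. Next came Acaa2 at 105 ± 24.1, Etfb at 99.9 ± 6.56, Hadhb at 95.1 ± 10.1 and Acadl at 94.7 ± 6.91, again without separation beyond the spread over the 6 animals. The spread of Acaa2 includes its difference between groups, so this order held in neither group. Its vehicle mean of 84.1 lay below those of Etfb (99.6), Acadl (91.4) and Hadhb (91.1). Its melatonin mean of 127 lay above theirs, at 100, 98.1 and 99.1.

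At the other end stood Pdk4, which encodes the kinase that shuts off pyruvate dehydrogenase when fat is burned, at 1.5 ± 0.56 FPKM. Acsl4, an acyl-CoA synthetase with a preference for arachidonic acid, stood at 2.75 ± 0.747, and Acadsb, the dehydrogenase for short branched chains, at 4.67 ± 1.46. The 4 peroxisomal genes lay between 9.95 ± 1.55 (Ehhadh) and 27.1 ± 4.79 FPKM (Hsd17b4). Summed per library, the 20 mitochondrial genes gave 1318 to 1533 FPKM and the 4 peroxisomal genes 55.2 to 73.2 FPKM. The ratio of the sums was 22.3 ± 1.54 after vehicle and 21.4 ± 0.536 after melatonin, with overlapping groups. The sums cover different numbers of genes, and the ratio describes these lists only.

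**Figure D1:**
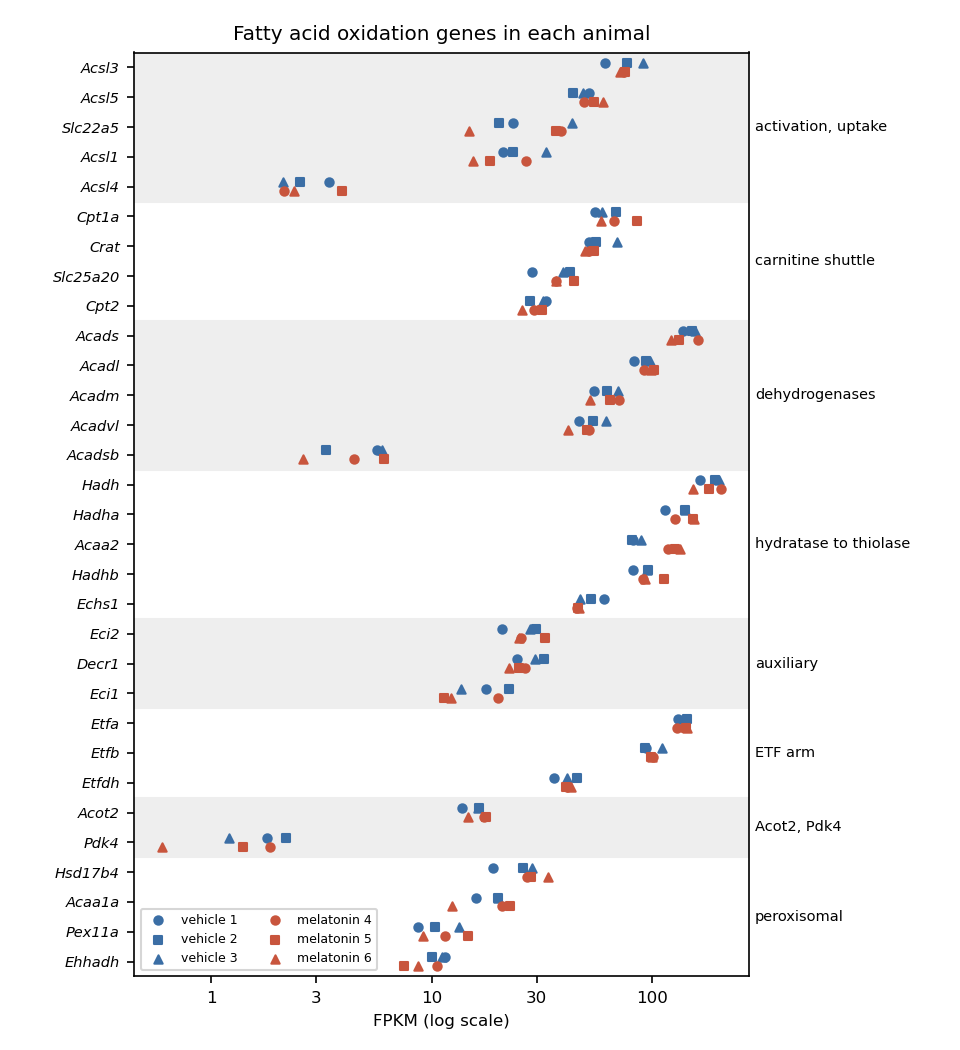
FPKM of each gene (horizontal log axis) in each animal, with genes in rows ordered by step of the pathway, vehicle animals in blue and melatonin animals in red. The 3 melatonin values of Acaa2 lie to the right of its 3 vehicle values, while Echs1 is the 1 gene with the reverse order, and for the other genes the colours mix.

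28 of the 31 genes had a promoter window in the RefSeq table (build GRCr8), which spans 250 bases before the transcription start to 50 after it. Acaa2, Acadl and Decr1 had none. Windows are printed where the values below bear on them. Hadha and Hadhb are shown because their windows lie head to head and share 200 bases, Acadm because it was the single member with a cAMP element, Echs1 because its groups did not overlap, and Ehhadh as a peroxisomal gene. Capitals mark the GC box GGGCGG, the nuclear receptor half-site AGGTCA, the cAMP element TGACGTCA, the CCAAT box CCAAT and the TATA box TATAAA, each on either strand.
Hadha, GRCr8 chr6:31907551-31907850, plus strand: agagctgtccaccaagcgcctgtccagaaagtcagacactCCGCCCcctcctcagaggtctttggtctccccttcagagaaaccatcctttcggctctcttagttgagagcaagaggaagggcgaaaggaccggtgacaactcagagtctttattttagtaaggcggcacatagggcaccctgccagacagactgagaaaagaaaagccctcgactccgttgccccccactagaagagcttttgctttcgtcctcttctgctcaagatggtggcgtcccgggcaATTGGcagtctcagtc
Hadhb, GRCr8 chr6:31907451-31907750, minus strand: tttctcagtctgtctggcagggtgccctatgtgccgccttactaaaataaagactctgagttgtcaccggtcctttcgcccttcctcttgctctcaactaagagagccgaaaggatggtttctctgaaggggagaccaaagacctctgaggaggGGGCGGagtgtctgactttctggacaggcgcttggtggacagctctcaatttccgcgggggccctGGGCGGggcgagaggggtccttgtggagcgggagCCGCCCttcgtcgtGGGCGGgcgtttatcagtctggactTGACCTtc
Acadm, GRCr8 chr2:245542815-245543114, minus strand: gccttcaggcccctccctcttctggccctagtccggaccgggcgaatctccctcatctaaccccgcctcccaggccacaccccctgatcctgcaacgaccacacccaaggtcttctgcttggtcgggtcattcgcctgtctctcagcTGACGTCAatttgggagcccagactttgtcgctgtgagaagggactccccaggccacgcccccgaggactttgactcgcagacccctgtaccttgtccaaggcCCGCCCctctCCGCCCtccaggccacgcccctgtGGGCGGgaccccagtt
Echs1, GRCr8 chr1:204333457-204333756, minus strand: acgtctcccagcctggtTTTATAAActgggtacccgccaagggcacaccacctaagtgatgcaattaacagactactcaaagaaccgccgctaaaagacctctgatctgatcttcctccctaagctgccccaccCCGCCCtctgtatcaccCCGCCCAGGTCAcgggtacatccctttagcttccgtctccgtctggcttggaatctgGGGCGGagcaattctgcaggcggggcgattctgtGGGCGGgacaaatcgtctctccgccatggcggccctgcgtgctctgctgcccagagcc
Ehhadh, GRCr8 chr11:92746159-92746458, plus strand: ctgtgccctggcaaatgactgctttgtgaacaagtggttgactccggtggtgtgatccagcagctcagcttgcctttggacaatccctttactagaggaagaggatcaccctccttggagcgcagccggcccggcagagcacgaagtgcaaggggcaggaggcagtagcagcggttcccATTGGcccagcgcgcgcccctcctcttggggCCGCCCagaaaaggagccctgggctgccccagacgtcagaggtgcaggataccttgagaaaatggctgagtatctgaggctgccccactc

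The GC box, bound by Sp1-type factors, was present in 22 of 28 member windows (78.6%), against 62.2% of the 8249 windows of tested genes and 33.1% of all 33469 windows of 300 bases. The median GC content was 61% in the members, 60.7% in the windows of tested genes and 51.7% in all windows. In Hadha the GC box started at position -210 from the transcription start and was the 1 box that the Hadhb window also held. In Acadm the cAMP element started at position -103, and that motif was in 3.38% of tested windows. The half-site AGGTCA was in 6 of 28 member windows (Acadvl, Echs1, Eci1, Eci2, Hadhb and Hsd17b4), 21.4% against 12.2% of tested windows. The exact PPAR element, which repeats that half-site in the same direction with any 1 base between the copies, was in 0 of 28 and in 0.0243% of tested windows. The ERR element TCAAGGTCA, which also contains the half-site, was in 0 of 28 and in 0.182%, and the clock E-box CACGTG in 0 of 28 and in 9.49%. A match is a run of letters in this window only. Windows of other genes on the opposite strand overlapped those of Acadsb (Ikzf5, 298 bases), Pex11a (Wdr93, 183 bases) and Etfdh (C2h4orf46, 118 bases).

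The design sets animals given the hormone against animals given its solvent, all without a pineal rhythm. None of the 31 genes passed the test. With limma on log2(FPKM + 1), adjusted by Benjamini-Hochberg over all 10137 features tested, 0 members were called higher and 0 lower, where the share of all features called was 0.0% in each direction. Leaving out vehicle animal 1 raised the number of features called higher to 3, and leaving out melatonin animal 4 raised it to 4, with no member among them. At an unadjusted p under 0.05 there was 1 member, Acaa2, higher after melatonin, against 1.82% of all features higher and 1.92% lower. Differences were above 0 for 17 members and below 0 for 14, against 46.0% and 54.0% of all features, with a median of 0.01 beside -0.02 over all features. In tissue RNA, fewer cells of a type and less RNA per cell cannot be told apart. Nothing in the labels ties animals across groups by litter or day, and a two-sided exact permutation test of 3 animals against 3 cannot go below p = 0.1.

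**Figure D2:**
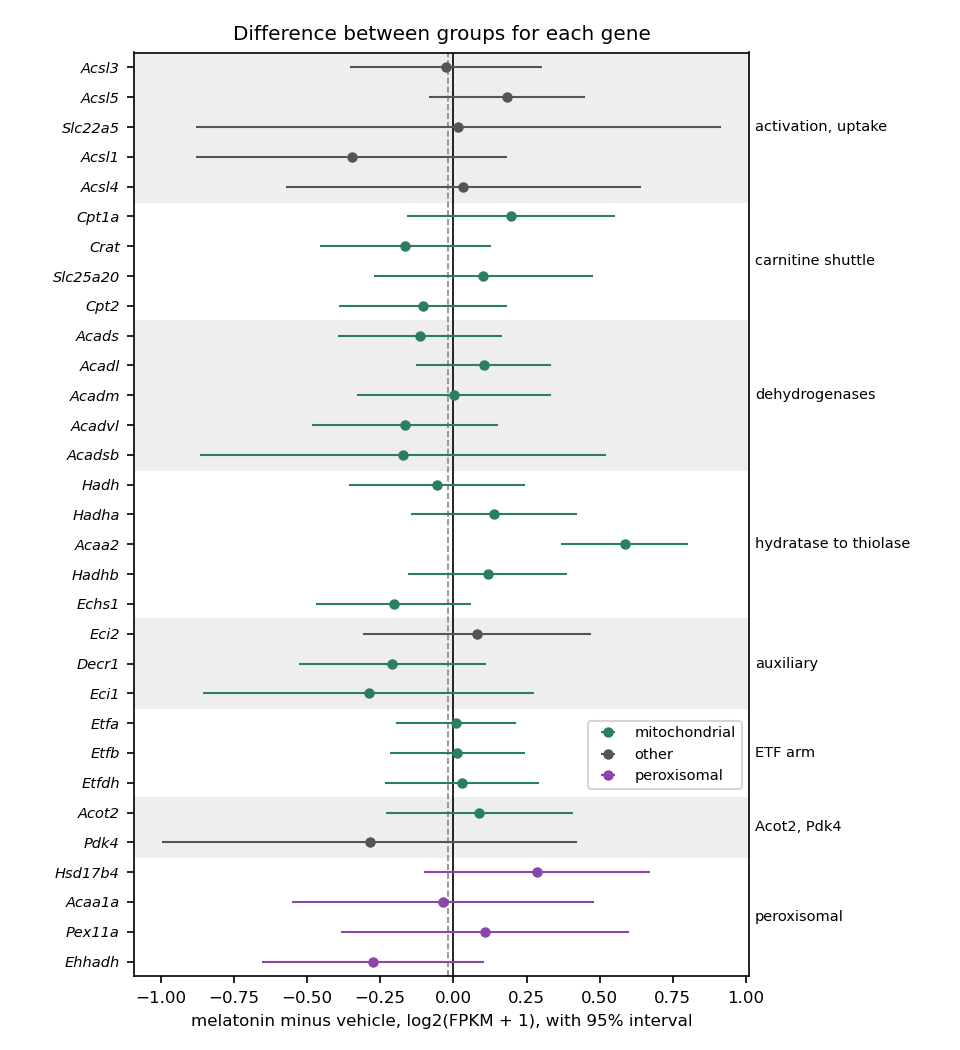
Difference between groups (melatonin minus vehicle, log2(FPKM + 1)) for each gene, with the 95% interval from limma, coloured by compartment. The dashed line marks the median of all features tested at -0.02, and Acaa2 is the 1 gene whose interval does not include 0.

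Acaa2 encodes the mitochondrial thiolase that cleaves medium and long ketoacyl-CoA. It stood at 81.7, 81.1 and 89.4 FPKM in vehicle animals 1 to 3 and at 118, 128 and 134 in melatonin animals 4 to 6. Every melatonin animal lay above every vehicle animal, on 422 to 761 estimated reads per library. The group values were 84.1 ± 4.63 and 127 ± 7.97 (SD, n = 3 animals each), a ratio of means of 1.51. The log2 difference was 0.59 ± 0.09 (SE), with a 95% interval of 0.37 to 0.80 and a limma adjusted p of 0.480. In the authors' deposited table its probability score was 0.704, at rank 134 of 13647 transcripts. Acaa2 was the 1 member with all melatonin values above all vehicle values, against 4.04% of all features.

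Interferon-stimulated genes differed among the melatonin animals. The 17 such genes found summed to 172 FPKM in animal 4, 420 in animal 5 and 445 in animal 6, against 166 to 181 after vehicle, and all 16 tested had a positive difference. Ifi27l2b, one of them, was at 39.25 FPKM in animal 4, above its vehicle values of 18.1 to 26.5. T and NK cell markers summed to 7.04, 16.95 and 29.98 FPKM in animals 4, 5 and 6 and to 13.4, 11.6 and 3.53 after vehicle. The part of these genes and cells in the level of Acaa2 was not tested.

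The other enzymes of the same mitochondrial spiral did not share the pattern of Acaa2. Echs1, the short-chain enoyl-CoA hydratase, was the 1 member with all melatonin values below all vehicle values, against 4.33% of all features. It stood at 60.9, 52.8 and 47.45 FPKM after vehicle and at 45.67, 46.2 and 46.87 after melatonin. Values in the melatonin animals were close together, and vehicle animal 3 lay just above them. Its log2 difference was -0.20 ± 0.11 (95% interval -0.47 to 0.06, limma adjusted p = 0.972), and without vehicle animal 1 it was -0.11.

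Hadha and Hadhb encode the alpha and beta subunits of the trifunctional protein, which carries out hydration, dehydrogenation and thiolysis of long chains. Hadha stood at 115, 141 and 141 FPKM after vehicle and at 128, 153 and 156 after melatonin. Hadhb stood at 82.3, 95.6 and 95.3 and at 91.3, 113 and 92.7. Vehicle animal 1 was lowest for both genes, and the groups overlapped. The log2 differences were 0.14 ± 0.12 (95% interval -0.14 to 0.42) and 0.12 ± 0.12 (95% interval -0.15 to 0.39). Without vehicle animal 1 the difference of Hadha was 0.04, and without melatonin animal 5 that of Hadhb was 0.02. Within an animal the ratio of Hadha to Hadhb, whose windows share 200 bases above, ran from 1.35 to 1.48 in 5 animals and was 1.69 in melatonin animal 6. Hadh stood at 165, 194 and 202 FPKM after vehicle and at 206, 181 and 154 after melatonin, with melatonin animals at both ends of the range.

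Set against Hadhb, the thiolase subunit of the trifunctional protein, Acaa2 kept its separation. This ratio and the one to Acaa1a below use the same Acaa2 values again and give no separate support. The ratio of Acaa2 to Hadhb was 0.994, 0.848 and 0.939 after vehicle and 1.29, 1.13 and 1.45 after melatonin, or 0.927 ± 0.0737 and 1.29 ± 0.157. Acat1, the mitochondrial acetoacetyl-CoA thiolase and no member, stood at 69.4, 68.1 and 82.9 FPKM after vehicle and at 70.6, 75.3 and 69.3 after melatonin, so its groups overlapped; it was picked out after its values were seen. Against the peroxisomal thiolase Acaa1a the ratio was 5.14, 4.03 and 4.48 after vehicle and 5.64, 5.66 and 10.8 after melatonin. The high ratio in animal 6 went with the lowest Acaa1a value of the 6 animals, 12.4 FPKM. The ratio of Etfa to Etfb, the paired subunits of 1 protein, was 1.40 ± 0.153 and 1.39 ± 0.0896 and overlapped between groups.

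**Figure D3:**
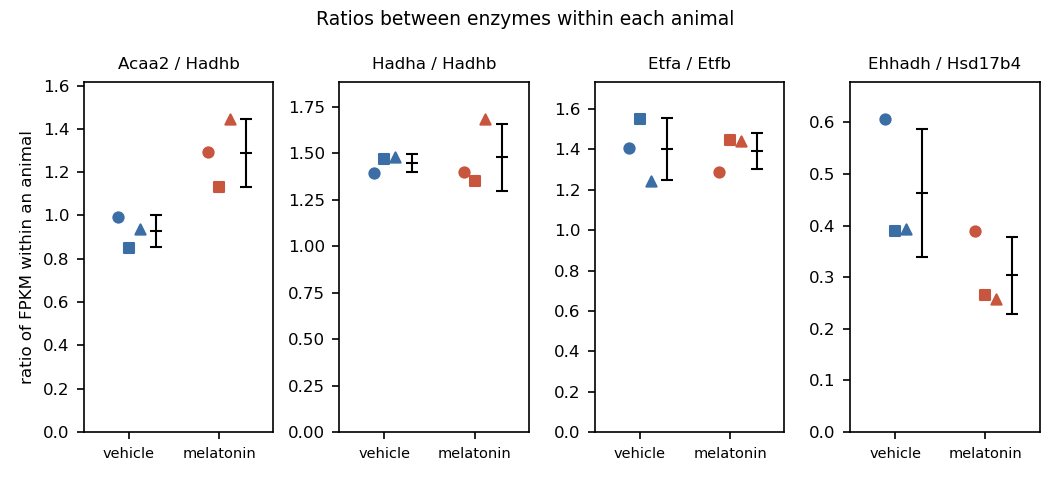
Ratio of FPKM within an animal (vertical axes from 0) for 4 pairs of genes, with 1 point per animal, the mean and SD beside it, and the same symbols per animal as in the plot of levels. The ratio of Acaa2 to Hadhb is 0.848 to 0.994 after vehicle and 1.13 to 1.45 after melatonin, while the other pairs overlap between groups. That ratio uses the Acaa2 values of the plot of levels again.

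The acyl-CoA dehydrogenases, which open each round and differ in the chain length they accept, were centred slightly below the vehicle level, with a median log2 difference of -0.11 over 5 genes, 2 of them positive and 3 negative. Acads stood at 138, 153 and 157 FPKM after vehicle and at 162, 132 and 122 after melatonin. Acadm, for medium chains, stood at 54.8, 62.5 and 70.3 and at 71.2, 64.7 and 52.2, which gives means of 62.5 ± 7.74 and 62.7 ± 9.66. For both genes animal 4 was the highest of the 6 and animal 6 the lowest, so the melatonin group spanned the vehicle group. Acadvl, for very long chains, had a log2 difference of -0.17 ± 0.14, Acadl, for long chains, of 0.10 ± 0.10, and Acadsb of -0.17 ± 0.30.

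The electron transfer flavoprotein arm, which passes electrons from these dehydrogenases to ubiquinone, had 3 positive differences, all small. Etfa, Etfb and the oxidoreductase Etfdh had log2 differences of 0.01 ± 0.09, 0.01 ± 0.10 and 0.03 ± 0.11. Their 95% intervals reached no further than -0.24 and 0.29. The 3 melatonin values of Etfb (99.1 to 101 FPKM) all lay within the vehicle range of 93.5 to 112.

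Genes of the auxiliary steps, needed for unsaturated chains, had a median log2 difference of -0.21 over 3 members. Decr1, the dienoyl-CoA reductase, stood at 24.4, 32.4 and 29.5 FPKM after vehicle and at 26.6, 25.1 and 22.4 after melatonin (log2 difference -0.21 ± 0.14, limma adjusted p = 0.972). The enoyl-CoA isomerase Eci1 stood at 17.6, 22.4 and 13.6 and at 20.1, 11.4 and 12.3 (log2 difference -0.29 ± 0.25, and -0.53 to -0.12 when 1 animal was left out). Melatonin animals 5 and 6 lay below all vehicle animals for Eci1, and animal 4 lay among them. Eci2, an isomerase found in peroxisomes as well as mitochondria, had a log2 difference of 0.08 ± 0.17.

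Of the carnitine shuttle, which moves long chains across the mitochondrial membranes, 2 genes had positive and 2 negative differences. Cpt1a, the outer membrane transferase and the control point of entry, stood at 55.0, 68.5 and 59.4 FPKM after vehicle and at 67.3, 86.0 and 58.6 after melatonin. Animal 5 was the highest of the 6, and animals 4 and 6 lay within the vehicle range, with a log2 difference of 0.20 ± 0.15 (95% interval -0.16 to 0.55) that was 0.05 without animal 5. Crat, the acetyltransferase for short chains, also found in peroxisomes, stood at 51.7, 56.0 and 69.5 and at 51.7, 54.9 and 49.9 (log2 difference -0.17 ± 0.13, limma adjusted p = 0.972, and -0.04 without vehicle animal 3). Cpt2, the inner membrane transferase, differed by -0.10 ± 0.12, and Slc25a20, the carnitine-acylcarnitine carrier, by 0.10 ± 0.16.

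The acyl-CoA synthetases activate fatty acids before they are oxidised or built into lipids. Acsl5, abundant in intestinal epithelium, stood at 51.9, 43.7 and 48.8 FPKM after vehicle and at 49.4, 54.9 and 60.2 after melatonin, with animals 5 and 6 above all vehicle animals (log2 difference 0.18 ± 0.12, limma adjusted p = 0.972). Acsl1, a PPAR target, stood at 21.2, 23.3 and 33.1 and at 27.0, 18.4 and 15.5, with animals 5 and 6 below all vehicle animals and animal 4 among them (log2 difference -0.35 ± 0.23, limma adjusted p = 0.972). Without melatonin animal 4 the difference of Acsl1 was -0.56, and without vehicle animal 3 it was -0.16. Acsl3, found on lipid droplets and the endoplasmic reticulum, differed by -0.03 ± 0.14 and Acsl4 by 0.03 ± 0.26.

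Slc22a5, the carnitine importer of the cell surface, varied most among animals, with a coefficient of variation of 39.1% over the 6. It stood at 23.4, 20.3 and 43.4 FPKM after vehicle and at 38.8, 36.8 and 14.9 after melatonin. Each group held both high and low animals, and the 95% interval of its log2 difference, -0.88 to 0.91, leaves its direction undetermined. Pdk4 stood at 1.80, 2.18 and 1.21 and at 1.84, 1.39 and 0.60, on 3.01 to 10 estimated reads, with a log2 difference of -0.29 ± 0.31 (95% interval -0.99 to 0.42). That difference was -0.05 without melatonin animal 6 and -0.50 with 0.1 in place of 1 added to FPKM. Adding 1 to FPKM understates the change of genes this low. Acot2, a mitochondrial thioesterase that frees fatty acids from CoA, stood at 15.5 ± 1.49 and 16.5 ± 1.6. Both Acot2, which lies in a family of close copies, and Acaa1a, with its close copy Acaa1b, may share reads with those copies, and their values are uncertain for that reason.

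The peroxisomal genes did not move in 1 direction. Their log2 differences had a median of 0.04, with 2 positive and 2 negative, beside a median of 0.01 over the 20 mitochondrial genes, with 11 positive and 9 negative. 0 of 4 and 0 of 20 were called. Ehhadh, the bifunctional enzyme for straight chains and a classic PPAR alpha target, stood at 11.6, 10.1 and 11.2 FPKM after vehicle and at 10.6, 7.53 and 8.70 after melatonin (log2 difference -0.28 ± 0.16, 95% interval -0.65 to 0.10, limma adjusted p = 0.972). Animals 5 and 6 lay below all vehicle animals and animal 4 among them.

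Hsd17b4, the multifunctional enzyme that handles branched chains and bile acid precursors, stood at 19.1, 25.9 and 28.5 FPKM after vehicle and at 27.1, 28.4 and 33.8 after melatonin (log2 difference 0.29 ± 0.17, 95% interval -0.10 to 0.67, limma adjusted p = 0.972). Vehicle animal 1 was the lowest and melatonin animal 6 the highest, and without vehicle animal 1 the difference was 0.12. The ratio of Ehhadh to Hsd17b4, which catalyse the same steps on different substrates, was 0.607, 0.389 and 0.393 after vehicle and 0.390, 0.265 and 0.257 after melatonin. The groups touched, with animal 4 between vehicle animals 2 and 3. Acaa1a stood at 18.7 ± 2.39 and 18.7 ± 5.49, and Pex11a, a PPAR-responsive membrane protein of dividing peroxisomes, at 10.8 ± 2.36 and 11.8 ± 2.76.

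For both compartments the spread among animals of a group was larger than the difference between groups. The median over the 20 mitochondrial genes, taken from the vehicle mean of each gene, was -0.14, 0.05 and 0.08 in vehicle animals 1 to 3 and 0.02, 0.04 and -0.13 in melatonin animals 4 to 6. Over the 4 peroxisomal genes it was -0.24, 0.03 and 0.16, and 0.13, 0.25 and -0.25. Vehicle animal 1 and melatonin animal 6 were the low animals for both sets, 1 in each group. The median over all features tested was -0.008 in vehicle animal 1 and -0.09 in melatonin animal 6. The low values of animal 6 thus stood beside a lower level of features in general, and those of vehicle animal 1 did not. Of all 31 members, 11 had their lowest value in vehicle animal 1 and 12 in melatonin animal 6. The share for vehicle animal 1, 35.5%, stands beside 14.1% of all features tested, and the share for animal 6, 38.7%, beside 33.3%. Animal 5 held the highest value of 10 members (32.3%, beside 17.1% of all features). Acaa2 did not follow animal 6 downward, and that animal held its highest value.

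**Figure D4:**
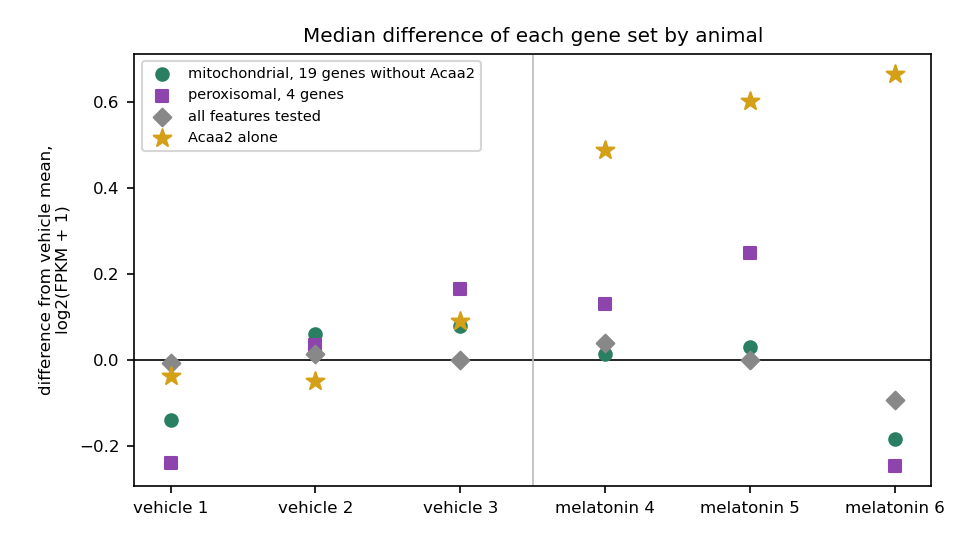
Median difference from the vehicle mean (log2(FPKM + 1)) in each animal for the mitochondrial genes other than Acaa2, the peroxisomal genes and all features tested, with Acaa2 alone as a star. Vehicle animal 1 and melatonin animal 6 lie low for both gene sets, while Acaa2 lies above the vehicle animals in all 3 melatonin animals. All features tested lie at -0.09 in melatonin animal 6.

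Markers of the cells in the tissue did not give 1 picture for the low animals. In vehicle animal 1 the colonocyte genes Car1 and Aqp8 were the lowest of the 6, at 861 and 57.8 FPKM. Car4 (486), Cdhr5 (735), Scnn1a (276) and Vil1 (361.3, against 361.5 in vehicle animal 3) were the lowest of the vehicle animals. In the same animal Guca2a (5481), Guca2b (80.4), Krt20 (1361), Krt8 (3449), Slc9a3 (253) and Ceacam1 (86.7) were the highest of the vehicle animals. Slc26a3 (1227) lay between the other vehicle animals. The median of all 13 colonocyte markers from the vehicle mean was 0.06 in vehicle animal 1 and 0.15 in melatonin animal 6. Markers of the crypt base and of dividing cells summed to 93.7, 73.5 and 55.9 FPKM after vehicle and to 79.3, 101 and 67.1 after melatonin, with the highest sum in animal 5. Of the 7 tested, 5 had positive and 2 negative differences, with a median log2 difference of 0.19. Only Mcm4 had all melatonin values above all vehicle values, against 4.04% of all features. It stood at 13.9, 12.4 and 11.0 FPKM after vehicle and at 16.6, 22.7 and 17.6 after melatonin (limma adjusted p = 0.972). The part of these cells in the levels of the oxidation genes was not tested.

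Genes around the pathway gave no call either, in any of the 6 lists. No list held more than 1 tested gene whose groups did not overlap. Over all features tested, 4.04% had all melatonin values above all vehicle values and 4.33% had all below. Of the other peroxisomal oxidation genes, 19 of 25 were tested, with 5 positive and 14 negative differences and a median log2 difference of -0.11. Over all features tested, 46.0% of differences were positive and 54.0% negative, with a median of -0.02. Melatonin animal 6 held the lowest value of 42.1% of the 19 genes, beside 33.3% of all features. The epoxide hydrolase Ephx2 stood at 22.3, 23.7 and 25.6 FPKM after vehicle and at 22.6, 15.9 and 8.99 after melatonin (log2 difference -0.65 ± 0.28, limma adjusted p = 0.972). Acot8, a peroxisomal thioesterase picked out after its values were seen, lay at 8.31 to 12.2 and at 12.52 to 13.3 without overlap.

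Of 15 peroxins, which build peroxisomes, 4 had positive and 11 negative differences, with a median of -0.13 beside -0.02 over all features. Melatonin animal 6 held the lowest value of 33.3% of them, the same share as over all features. Pex11g stood at 4.26, 4.92 and 3.29 FPKM after vehicle and at 1.54, 2.74 and 2.75 after melatonin (log2 difference -0.64 ± 0.25, limma adjusted p = 0.972). It was the 1 of these 15 with all melatonin values below all vehicle values, against 4.33% of all features. Pex19, a receptor for peroxisomal membrane proteins, stood at 31.3 ± 3.61 and 25.8 ± 5.09. Of the other mitochondrial acyl-CoA genes, 24 of 35 were tested, with 7 positive and 17 negative and a median of -0.08. Melatonin animal 6 held the lowest value of 50% of the 24, beside 33.3% of all features. Mccc1, a subunit of the leucine-degrading carboxylase, stood at 20.4, 16.1 and 19.3 and at 13.4, 15.6 and 8.82 (log2 difference -0.55 ± 0.21, limma adjusted p = 0.972). It was the 1 of the 24 with all melatonin values below all vehicle values, against 4.33% of all features. Acsm3, a medium-chain synthetase, stood at 5.70, 19.1 and 6.10 and at 8.77, 2.40 and 2.96.

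Of the PPAR and ERR regulators, 18 of 21 were tested, with a median log2 difference of -0.03. Ppara, the receptor itself, stood at 3.66, 3.99 and 3.98 FPKM after vehicle and at 4.04, 1.68 and 2.25 after melatonin. Animal 4 was at the vehicle level and animals 5 and 6 were below it (log2 difference -0.47 ± 0.27, limma adjusted p = 0.972). The coactivator Ppargc1b stood at 8.56 ± 1.02 and 10.7 ± 1.73. The orphan receptor Esrrb, also picked out after its values were seen, lay at 2.23 to 2.65 and at 2.86 to 3.85. It was the 1 of the 18 tested without overlap, and 4.04% of all features lay wholly higher after melatonin. Of PPAR targets outside oxidation, 14 of 27 were tested, with a median of -0.07. The acyl-CoA thioesterase Acot3 stood at 24.8 ± 5.34 and 19.6 ± 3.21 and the malic enzyme Me1 at 12.9 ± 4.02 and 17 ± 6.37. Of the pyruvate dehydrogenase group, 11 of 12 were tested, 2 positive and 9 negative, with a median of -0.08 beside -0.02 over all features. Its subunit Dlat stood at 46.8 ± 3.62 and 42.5 ± 3.73, and the kinase Pdk2, at 22.4 ± 2.14 and 19.2 ± 5.94, was expressed well above Pdk4.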

How the data were processed

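RNA from the colonic epithelium of 6 rats was sequenced after oligo(dT) capture and random priming, per the labels' protocols, which describe no strand marking. The authors deposited FPKM values per RefSeq transcript and animal, rounded to 2 decimals, with the mean FPKM of each group, the log2 ratio of the means and a probability, treated here as a score between 0 and 1, per the file headers. BWA (0.7.10-r789), RSEM, Bowtie2 and build rn6 are listed in the submitters' processing notes, with no role for each. For the probability's tool and the annotation release, the sources used here give nothing.

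Transcripts were named by accession from the RefSeq rat annotation (GRCr8, 12883 of 13647 matched) and summed per gene. Features with a mean of at least 1 FPKM over the 6 animals (10137, all 31 members among them) entered limma 3.58.1 (R 4.3.3), fitted on log2(FPKM + 1) with a mean trend. Tests were two-sided, p-values were adjusted by the Benjamini-Hochberg method, and the threshold was 0.05. The script was tested on simulated data. Depth was estimated from transcripts of up to 450 bases, with 36 bases taken off each length, and 83.0% to 87.8% of their low values came within 0.1 of whole reads. Members and lists were chosen with earlier results of these data known. The rule for named genes took every member, full statistics for the 8 with the smallest p, up to 2 genes of each surrounding list by smallest p, and Ppara. A few of the surrounding genes it covers were left out of the text. Alternatives changed the pseudocount, filter, scaling, transcript choice or trend, or left out an animal. Among other markers read, goblet cell genes (6 of 8 tested) had a median log2 difference of -0.08, macrophage and dendritic cell genes (6 of 9) of 0.08 and red blood cell genes (4 of 7) of -0.42.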

Additional observations from a re-analysis of the deposited data

How the results depend on the processing

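No member was called under any of the 13 alternatives, and the lowest adjusted p of a member was 0.111, for Acaa2 without melatonin animal 4. The log2 difference of Acaa2 was 0.545 to 0.635 when 1 animal was left out, and its limma adjusted p lay between 0.111 and 1.0 over all alternatives. Features called higher numbered 1 with the highest transcript of each gene in place of the sum and 0 to 4 when 1 animal was left out (3 without vehicle animal 1, 4 without melatonin animal 4). Features called lower numbered 1 without a filter and 1 without the mean trend. Without melatonin animal 4, an unadjusted p under 0.05 was reached by 485 features on the higher side and 671 on the lower, against 185 and 195 with all animals, and the members among them were Acaa2, Eci1, Ehhadh and Acsl1. The median log2 difference was -0.06 to 0.03 for the mitochondrial genes and -0.11 to 0.21 for the peroxisomal genes when 1 animal was left out. 18 members kept their sign in every alternative. Among these, leaving out 1 animal gave log2 differences of 0.034 to 0.15 (Acadl), -0.23 to -0.028 (Acads), -0.27 to -0.066 (Acadvl), 0.011 to 0.17 (Acot2), -0.56 to -0.16 (Acsl1), 0.11 to 0.26 (Acsl5), 0.048 to 0.32 (Cpt1a), -0.17 to -0.028 (Cpt2), -0.25 to -0.044 (Crat), -0.32 to -0.12 (Decr1), -0.39 to -0.17 (Ehhadh), 0.040 to 0.23 (Hadha), 0.018 to 0.17 (Hadhb), 0.12 to 0.40 (Hsd17b4) and -0.46 to -0.051 (Pdk4). The other 13 changed sign when some animal was left out, with log2 differences of -0.19 to 0.22 (Acaa1a), -0.095 to 0.13 (Acadm), -0.40 to 0.088 (Acadsb), -0.17 to 0.11 (Acsl3), -0.17 to 0.17 (Acsl4), -0.068 to 0.17 (Eci2), -0.025 to 0.055 (Etfa), -0.030 to 0.096 (Etfb), -0.057 to 0.11 (Etfdh), -0.16 to 0.053 (Hadh), -0.050 to 0.26 (Pex11a), -0.22 to 0.45 (Slc22a5) and -0.064 to 0.21 (Slc25a20). Acadm also turned to -0.0018 with values scaled to TPM. The cause was not tested. No paired analysis was possible because the animals of the 2 groups share no numbers. Pdk4 had the fewest estimated reads.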
